A study of Homo sapiens with 9 samples.

Results

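The genes of the activating transcription factor 4 (ATF4) stress response and of serine synthesis were examined by bulk RNA sequencing. The cells were the breast cancer cell line MDA-MB-453, which the study treats as triple-negative. The set held 41 genes out of 59452 in the gene table. They were chosen by symbol as regulators, enzymes, effectors and secreted factors of this response and 1 of them, *JDP2-AS1*, was found by its Ensembl identifier because the table gives it no symbol. Of the 41 genes, 37 passed the filter on low counts, as did 15528 genes in all. All 9 libraries came from wild-type cells grown in DMEM with 10% fetal bovine serum and treated for 48 hours. There were 3 conditions with 3 biological replicates each, namely attached culture with vehicle (DMSO), forced suspension on poly-HEMA coated plates with vehicle, and forced suspension with 10 µmol/L AT-0174, a dual inhibitor of the tryptophan-degrading enzymes TDO2 and IDO1. Poly-HEMA keeps cells from attaching to the plate. An attached culture with AT-0174 was not analysed here, so the compound was compared with vehicle in suspension alone, and the p-values below measure the spread between cultures of a single cell line.

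ATF4 is the main transcription factor of the integrated stress response. Kinases that sense amino acid shortage, haem shortage, unfolded protein or double-stranded RNA phosphorylate the translation factor eIF2, which slows protein synthesis while raising translation of the *ATF4* mRNA, so that ATF4 protein can rise with no rise of its mRNA. ATF4 pairs with C/EBP proteins at the promoters of genes for amino acid synthesis, amino acid uptake and tRNA charging, and of regulators such as *DDIT3* and *TRIB3*. Serine is made from a glycolytic intermediate by PHGDH, PSAT1 and PSPH in that order, and SHMT enzymes then pass a carbon unit from serine to folate. Only mRNA was measured here.

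The element through which ATF4 with a C/EBP partner is known to act was searched for in the promoters as the letters TGATGNAA on both strands. The RefSeq windows covered 250 bases before and 50 bases after a gene start (build GRCh38.p14) and included 32 of the 41 genes in 47 windows. A match was present for 6 of these 32 genes, or 18.75%, against 4.46% of all 27305 genes with a window. The 6 matches are shown as a description of sequence only, and binding of ATF4 to these sites was not measured. Each line gives 30 bases from 5′ to 3′ on the strand of the gene, and capitals mark the match or its reverse complement TTNCATCA.
ASNS, chr7:97872458-97872487, minus strand: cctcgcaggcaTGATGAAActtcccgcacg
CEBPG, chr19:33374060-33374089, plus strand: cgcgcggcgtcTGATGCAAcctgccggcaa
CHAC1, chr15:40953251-40953280, plus strand: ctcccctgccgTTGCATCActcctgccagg
FGF21, chr19:48755459-48755488, plus strand: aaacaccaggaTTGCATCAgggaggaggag
MTHFD1L, chr6:150866346-150866375, plus strand: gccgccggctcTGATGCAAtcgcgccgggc
PPP1R15B, chr1:204412026-204412055, minus strand: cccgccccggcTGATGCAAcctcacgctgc
The match began 68 bases before the gene start in *ASNS*, 42 before it in *CEBPG*, 209 in *CHAC1*, 54 in *FGF21* and 227 in *PPP1R15B*. In *MTHFD1L* it lay 24 bases after the first of several starts. The window of *GDF15*, the gene with the largest change below, held no match, which says only that these letters are not in that window. Its core promoter is shown with the TATA letters TATAAA, which begin 29 bases before the start, in capitals. TATAAA, also searched on both strands, was present in 11.5% of the 35116 windows in the table. In the set it was present in 6 of the 47 windows, which belong to 5 of the 32 genes.
GDF15, chr19:18386117-18386146, plus strand: aagtccggggacTATAAAggccggtccggc

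Each library held between 36649997 and 48019126 estimated counts. Levels are given as counts-per-million (CPM) values after scaling by the trimmed mean of M values (TMM). On the library totals before this scaling, 3 counts correspond to 0.0625 to 0.0819 CPM, a limit that covers counting error only. All 10 epithelial and luminal markers, *ERBB2* among them, were present in every library and summed to 6405 to 7063 CPM. Of the receptor genes behind the triple-negative label, *ESR1* averaged 0.0266 to 0.0438 CPM and *PGR* 0.305 to 0.341 CPM per condition. *ERBB2* averaged 1051 to 1062 CPM, and receptor protein was not measured here. Of 15 markers of leukocytes, fibroblasts and endothelial cells, *CD3E*, *DCN* and *LUM* were at 0 throughout. The exception was *COL1A1*, which had 131 to 149 CPM in the attached and 112 to 114 CPM in the suspended vehicle libraries and fell (adjusted p = 0.00182), while the other 14 summed to 1.68 to 2.61 CPM per library. Mitochondrial genes took 7.56 to 9.32% of the counts in attached libraries, 4.05 to 4.34% in suspended vehicle libraries and 3.73 to 5.51% in AT-0174 libraries. Whether the mitochondrial share or *COL1A1* has any part in the results below was not tested.

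Levels were compared between genes per transcript length, as transcripts-per-million (TPM) values summed by gene. Mitochondrial genes took on average 17.6% of all TPM in attached, 9.90% in suspended vehicle and 10.7% in AT-0174 libraries. TPM of the other genes is thus not on a common scale between conditions, and differences between conditions were tested on counts. *ATF4* had the highest level of the 41 genes, at 570 ± 6.74 TPM (SD, n = 3) in attached cells, 612 ± 27.6 TPM in suspended cells and 599 ± 13.5 TPM with AT-0174. *EIF2S1*, the regulatory subunit of eIF2 that the stress kinases phosphorylate, came next at 408 to 474 TPM. It was followed by the stress-induced chromatin regulator *NUPR1*, the mitochondrial folate enzymes *MTHFD2* and *SHMT2*, the proline enzyme *PYCR1* and the kinase-like regulator *TRIB3*. For *EIF2S1*, 83.2 to 85.4% of the TPM in each library was assigned to transcripts annotated as retained introns, and its protein-coding transcripts summed to 61.5 TPM in attached cells. The place of *EIF2S1* in this order depends on how reads were divided among its transcripts.

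*DDIT3*, a transcription factor of the death arm of the response, had 10.3 to 12.4 TPM on average in the 3 conditions, and *CHAC1*, which degrades glutathione, had 5.15 to 6.71 TPM. *ASNS*, which makes asparagine, had 15.6 to 17.9 TPM. *GDF15* had 20.04 ± 0.678 TPM in attached cells, 36.3 ± 1.18 TPM in suspended cells and 54.98 ± 1.71 TPM with AT-0174. The plot of levels per length shows that the 3 conditions lay close together for most genes.

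**Figure D1:**
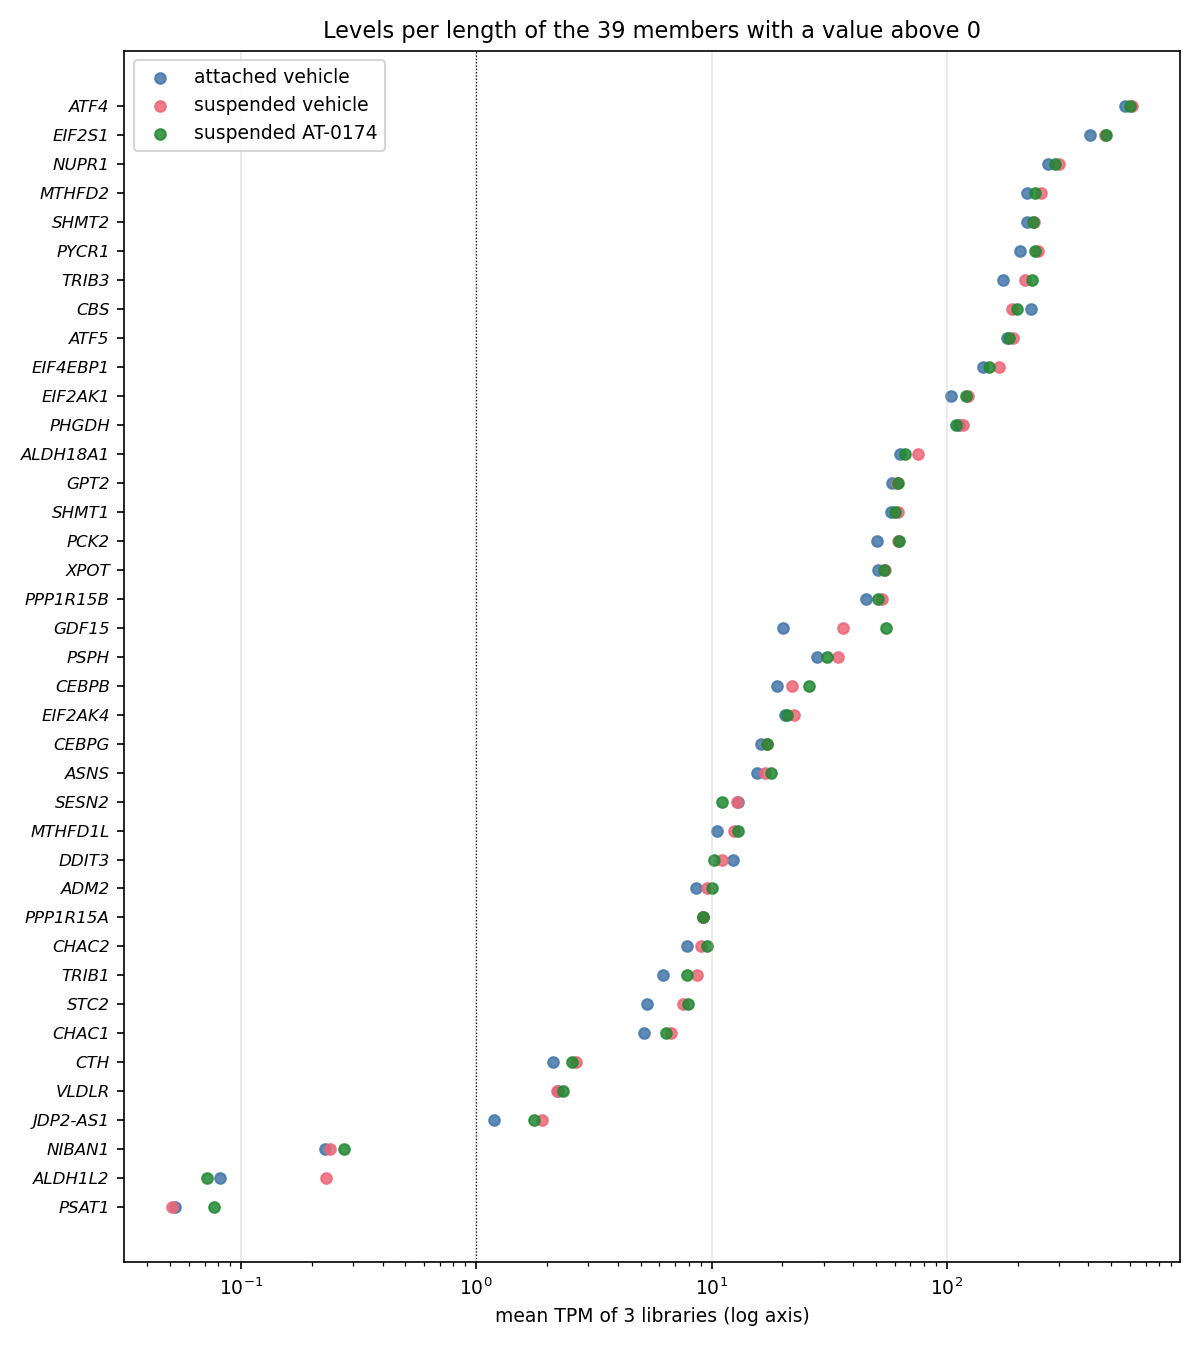
Mean TPM of 3 libraries per condition (log axis) for the 39 genes of the set with a value above 0, ordered by their mean over all libraries, with 1 point per condition. *ATF4* is highest at 570 to 612 TPM, and *PSAT1* lies lowest at 0.05 to 0.08 TPM, while *GDF15* shows the widest spacing of the 3 points among genes above 1 TPM.

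The serine synthesis genes were unequally present. *PHGDH*, the first enzyme of the pathway, had 113 TPM in attached cells, 117 TPM in suspended cells and 109 TPM with AT-0174. *PSPH*, the last enzyme, had 28.2, 34.4 and 30.9 TPM. *PSAT1*, the transaminase between them, had 1 to 4 estimated counts per library and 0.05 to 0.08 TPM on average in each condition, so it was at or near the limit of 3 counts throughout and was not tested. It had 0.0523, 0.0277 and 0.103 CPM in the attached libraries, 0.0517, 0.0680 and 0.0910 CPM in the suspended vehicle libraries and 0.0828, 0.0955 and 0.0907 CPM with AT-0174, values of a few counts that overlap. The mitochondrial folate enzyme *ALDH1L2* had 0 to 6 counts per library. The hormone gene *FGF21*, whose promoter holds the element shown above, and the antisense RNA *CARS1-AS1* were listed at 0 in all 9 libraries, which allows up to 3 counts in each. These 4 genes were the members that did not pass the filter.

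The first comparison asked what forced suspension changed under vehicle. Of the 37 tested genes, 9 rose and 1 fell in suspended against attached cells (edgeR's quasi-likelihood test, Benjamini-Hochberg adjusted p under 0.05 over all genes tested), where 10.4% of all tested genes rose and 10.8% fell. The groups did not overlap for 13 genes that were higher and 4 that were lower, against 19.4% and 18.7% of all tested genes. The median log2 fold change over the 37 genes was 0.07, and over all tested genes it was -0.00. The 9 that rose were *GDF15*, *TRIB1*, *PCK2*, *TRIB3*, *PYCR1*, *MTHFD2*, *EIF2S1*, *ALDH18A1* and *PPP1R15B*, and *CBS* fell. Apart from *GDF15*, the rises were between 0.12 and 0.30 on the log2 scale. With counts rebuilt from TPM, 4 of these 10 calls were kept (*CBS*, *GDF15*, *TRIB1* and *TRIB3*). In bulk RNA, fewer cells that express a gene and less RNA per cell cannot be told apart.

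Among the secreted factors, *GDF15*, a stress-induced cytokine encoded at chr19:18374731-18389176 on the plus strand (GRCh38, GENCODE 44), had 14.4, 15.1 and 15.9 CPM in the attached libraries and 26.5, 24.2 and 25.4 CPM in the suspended vehicle libraries. Every suspended library was above every attached one. The gene rose by 0.75 on the log2 scale (SE 0.0539, 1.68-fold, adjusted p = 3.51e-06), and 27 of the 15528 genes had a smaller p. *STC2*, a secreted glycoprotein, had 10.0 to 10.4 CPM attached and 10.9 to 12.4 CPM suspended, groups that did not overlap but did not pass the test (log2 difference 0.19, adjusted p = 0.0697). *ADM2*, a peptide hormone of the adrenomedullin family, differed by 0.04 (95% interval -0.06 to 0.14).

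Among the regulators, *ATF4* itself had 513, 513 and 538 CPM attached and 533, 489 and 532 CPM suspended, and the groups overlapped. Its log2 difference was -0.01 (SE 0.0372, 95% interval -0.09 to 0.07). *TRIB3*, a pseudokinase that ATF4 induces and that restrains ATF4 in turn, had 271, 269 and 279 CPM attached and 307, 311 and 319 CPM suspended. All suspended libraries were higher, and *TRIB3* rose by 0.19 (SE 0.0353, adjusted p = 0.00304). *TRIB1*, a related pseudokinase, had 12.3, 11.8 and 13.2 CPM attached and 15.5, 15.6 and 14.9 CPM suspended, again with no overlap. It rose by 0.30 (SE 0.0702, adjusted p = 0.0101).

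*DDIT3* had the opposite sign and did not pass the test. It had 6.38, 6.89 and 7.004 CPM attached and 5.68, 5.10 and 5.89 CPM suspended, so each suspended library was below each attached one, and its log2 difference was -0.28 (SE 0.0941, adjusted p = 0.0507). With limma-voom *DDIT3* passed the threshold. The other regulators *ATF5*, *CEBPB*, *CEBPG* and *NUPR1* were not called, with log2 differences between -0.04 and 0.11. The 3 suspended libraries of *CEBPB*, a C/EBP partner of ATF4, were spread from 19.6 to 28.6 CPM, where the attached ones lay between 22.8 and 23.4 CPM. The antisense RNA *JDP2-AS1* had 2.73 to 3.19 CPM attached and 2.71 to 3.38 CPM suspended, and its interval from -0.24 to 0.34 was wide. Whether the counting separated it from overlapping sense transcripts is not settled by the sources used here.

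**Figure D2:**
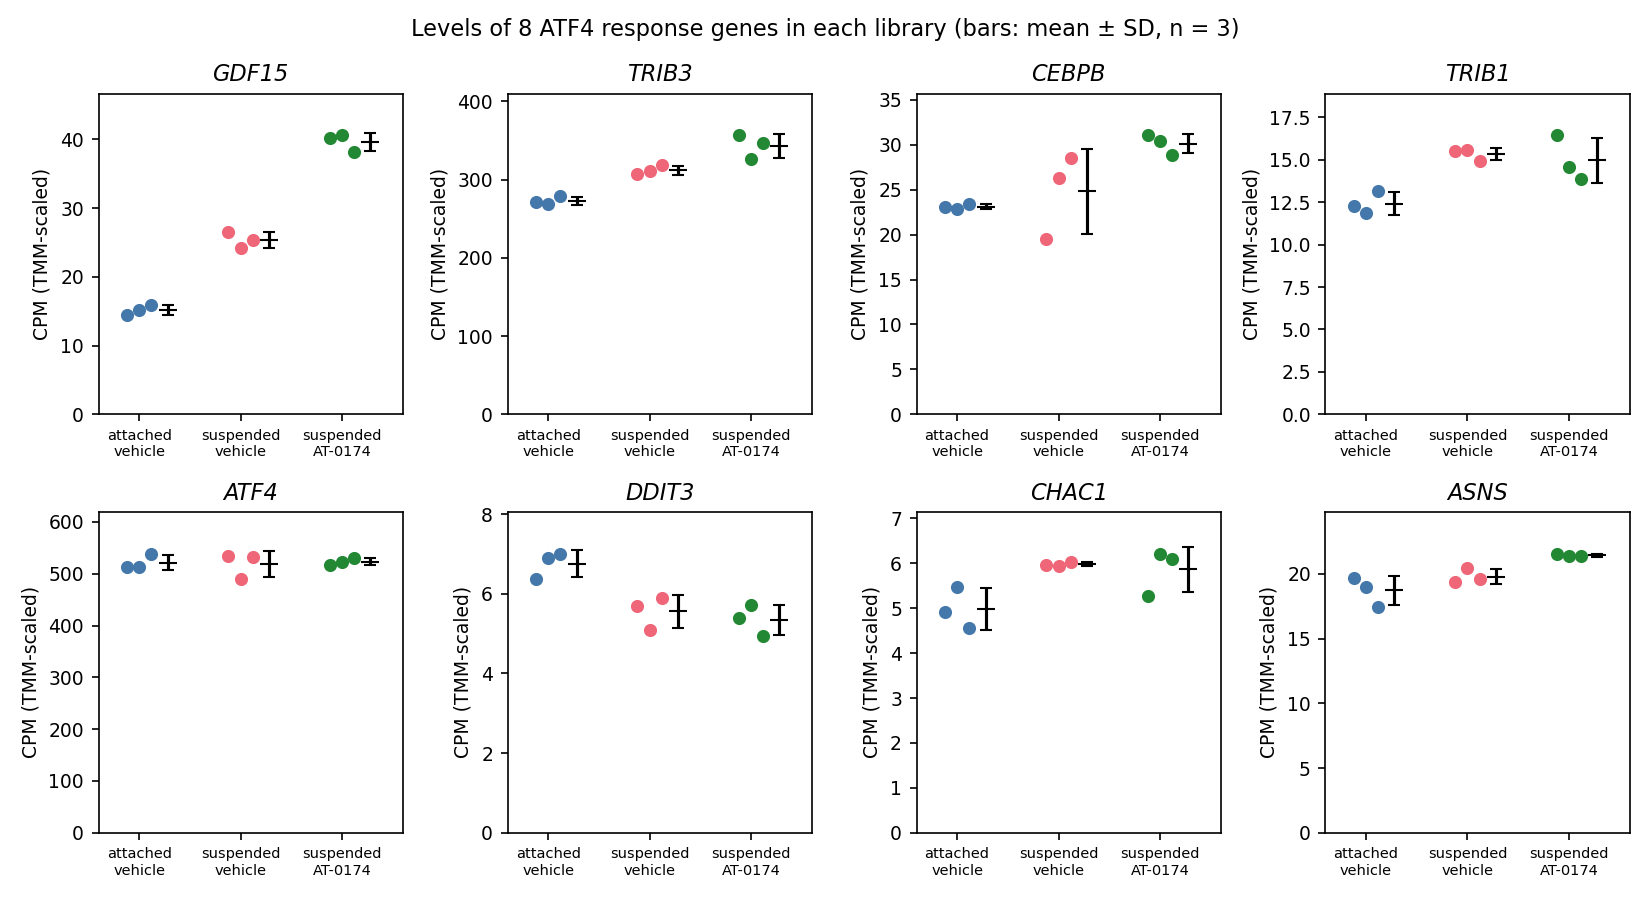
CPM of 8 genes of the set in each library, with a linear axis from 0 in each panel. Points are the 3 libraries of a condition and bars are the mean ± SD (n = 3). *GDF15* steps up from 14.4 to 15.9 CPM attached, through 24.2 to 26.5 CPM suspended, to 38.1 to 40.6 CPM with AT-0174, while *ATF4* stays between 489 and 538 CPM.

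Of the 5 genes of the eIF2 switch, 2 rose in suspension, beside 10.4% of all tested genes. Out of 19 alternatives, the call was lost in 4 for *EIF2S1* and in 6 for *PPP1R15B*. *EIF2S1* had 188, 192 and 182 CPM attached and 215, 201 and 198 CPM suspended, without overlap, and rose by 0.13 (SE 0.0355, adjusted p = 0.0227). *PPP1R15B*, the constitutive subunit that guides a phosphatase to eIF2, had 173, 159 and 173 CPM attached and 180, 181 and 188 CPM suspended, and rose by 0.12 (SE 0.0361, adjusted p = 0.0335). Its stress-induced relative *PPP1R15A* was not called, at 13.5 to 15.2 CPM attached and 12.3 to 14.5 CPM suspended (95% interval -0.27 to 0.04). The kinases *EIF2AK4* (GCN2, the amino acid sensor) and *EIF2AK1* (the haem sensor) differed by 0.01 and 0.05, neither past the threshold.

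In serine synthesis neither tested gene was called by edgeR, DESeq2 or limma-voom, with 1 at an unadjusted p under 0.05. *PHGDH* had 116, 114 and 114 CPM attached and 111, 110 and 114 CPM suspended, with a log2 difference of -0.04 (95% interval -0.11 to 0.03). *PSPH* had 25.6, 26.1 and 25.5 CPM attached and 27.2, 27.1 and 30.5 CPM suspended, a difference of 0.13 without overlap that did not pass (SE 0.0553, adjusted p = 0.107).

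In folate metabolism, *MTHFD2* rose. This mitochondrial dehydrogenase had 195, 186 and 178 CPM attached and 205, 211 and 205 CPM suspended, and the groups did not overlap (log2 difference 0.15, SE 0.0357, adjusted p = 0.0113). *SHMT2*, which moves the carbon of serine to folate in mitochondria, had 195, 198 and 197 CPM attached and 206, 205 and 207 CPM suspended. These groups did not overlap either, but the difference of 0.07 did not pass (SE 0.0277, adjusted p = 0.105). The cytosolic enzyme *SHMT1* and the mitochondrial enzyme *MTHFD1L* differed by -0.03 and 0.09 and were not called.

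Of the 7 other amino acid enzymes, 3 rose and 1 fell, beside 10.4% and 10.8% of all tested genes. *ALDH18A1* and *PYCR1* carry out the first and the last step of proline synthesis from glutamate. *ALDH18A1* had 133, 141 and 131 CPM attached and 145, 151 and 146 CPM suspended, and rose by 0.13 (SE 0.035, adjusted p = 0.0219). *PYCR1* had 202, 199 and 195 CPM attached and 216, 224 and 223 CPM suspended, and rose by 0.15 (SE 0.0351, adjusted p = 0.00964). *PCK2*, which makes phosphoenolpyruvate in mitochondria, had 74.7, 71.2 and 70.1 CPM attached and 81.3, 85.3 and 80.8 CPM suspended. It rose by 0.20 (SE 0.0499, adjusted p = 0.0157). All suspended libraries were above all attached ones for these 3 genes, and their calls were lost with counts rebuilt from TPM.

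*ASNS*, the best known amino acid target of ATF4, was not called. It had 19.7, 19.0 and 17.5 CPM attached and 19.4, 20.4 and 19.6 CPM suspended, with overlap and a log2 difference of 0.08 (95% interval -0.03 to 0.19). *CTH* and *GPT2*, a cysteine-forming and an alanine-forming enzyme, differed by 0.12 and -0.07 and were not called.

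None of the 7 effectors was called by edgeR, DESeq2 or limma-voom, with 2 higher and 0 lower at an unadjusted p under 0.05. *CHAC1* had 4.91, 5.48 and 4.56 CPM attached and 5.97, 5.94 and 6.03 CPM suspended, so its groups did not overlap, but the difference of 0.26 did not pass (SE 0.1, adjusted p = 0.0805). *CHAC2*, its paralogue, differed by 0.09 (95% interval -0.10 to 0.28). The translation repressor *EIF4EBP1*, the tRNA exporter *XPOT*, the lipoprotein receptor *VLDLR*, the stress regulator *SESN2* and *NIBAN1* had differences from -0.21 to 0.12.

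*CBS*, which joins serine and homocysteine on the way to cysteine, was the single gene that fell. It had 274, 280 and 318 CPM attached and 232, 233 and 239 CPM suspended, without overlap, and fell by 0.31 (SE 0.0681, adjusted p = 0.00798). The gene lies at chr21:43053191-43076943 on the minus strand, and a near-identical copy, *CBSL*, is counted beside it. *CBSL* took 0 to 80.9 estimated counts per library, so the division of reads between the copies was uncertain, and *CBS* still fell when both were summed.

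The transcript classes of *CBS* did not share a single pattern. To set transcript classes side by side, TPM was recomputed over nuclear genes alone, and transcripts were sorted by their GENCODE 44 class. The 8 protein-coding *CBS* transcripts summed to 101 ± 4.98 (SD, n = 3) in attached, 103 ± 1.48 in suspended vehicle and 103 ± 3.44 in AT-0174 libraries, and their ranges overlapped. In the TPM as deposited, where mitochondrial genes took 16.3 to 19.6% of the total in attached, 9.71 to 10.1% in suspended vehicle and 8.71 to 12.6% in AT-0174 libraries, the same transcripts summed to 80.1 to 84.9 attached, 91.1 to 94.0 suspended and 90.4 to 94.3 with AT-0174. On that scale the attached libraries lay below all suspended ones, so whether this class differed depends on the scale. The 5 retained-intron transcripts summed to 102, 108 and 138 attached, 64.5, 69.4 and 76.2 suspended, and 61.5, 96.8 and 78.8 with AT-0174. For this class every attached library was above every suspended vehicle library, and the remaining 4 transcripts showed the same order, with 54.2 to 69.4 attached and 31.6 to 41.1 suspended. The protein-coding share of *CBS* was 33.7 to 39.4% attached, 46.5 to 51.4% suspended and 41.3 to 52.0% with AT-0174. Over all nuclear genes, retained-intron transcripts took 8.53 to 9.50% of the TPM in attached libraries, 7.53 to 7.68% in suspended vehicle libraries and 7.13 to 8.08% in AT-0174 libraries. These values describe an estimated division of reads among overlapping transcripts, no test was made on them, and the part of the wider retained-intron difference in the fall of *CBS* was not tested.

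**Figure D3:**
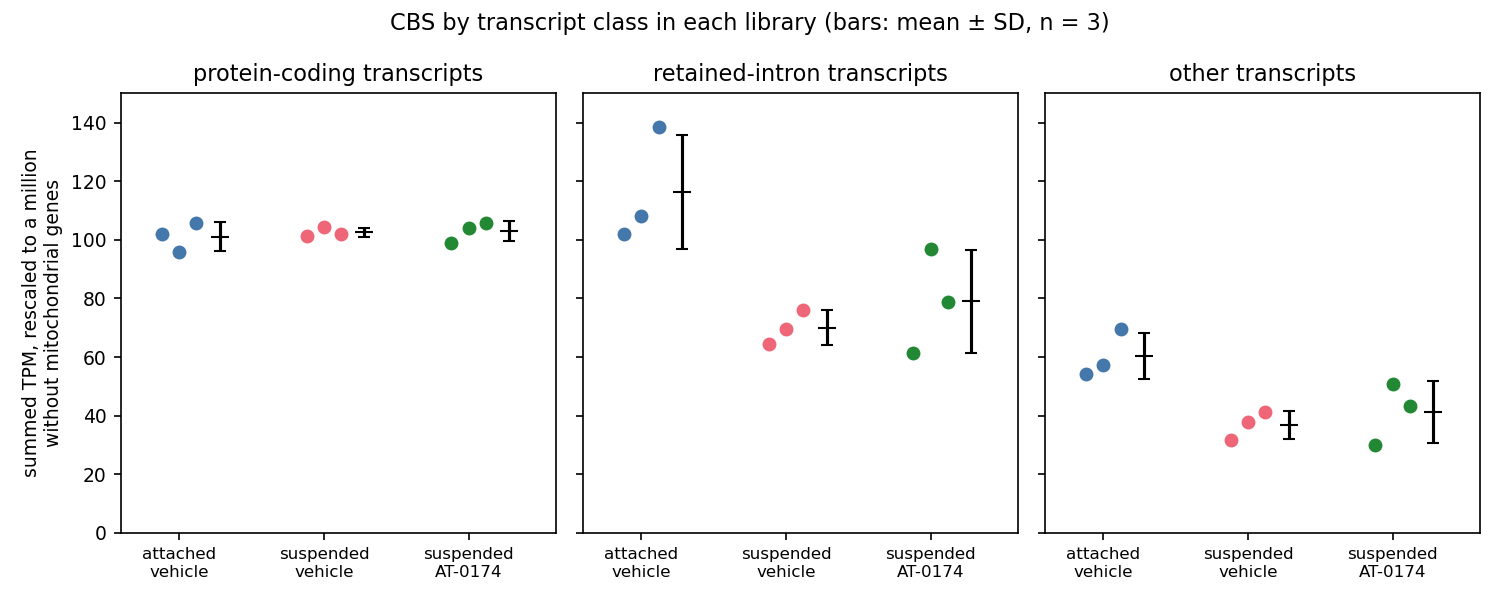
Summed level of *CBS* transcripts by annotated class in each library, as TPM recomputed over nuclear genes. Points are libraries and bars are the mean ± SD (n = 3), and protein-coding transcripts stay between 95.8 and 106 in all 9 libraries while retained-intron transcripts range from 102 to 138 attached and from 64.5 to 76.2 in suspended vehicle libraries.

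The summed level of the set overlapped between conditions there. The 41 genes summed to 4041 to 4142 on this nuclear TPM scale in attached libraries, 4101 to 4175 in suspended vehicle libraries and 4110 to 4140 with AT-0174. Without the rescaling, the sums were 3331 to 3382, 3697 to 3752 and 3621 to 3752 TPM, while mitochondrial genes took 16.3 to 19.6%, 9.71 to 10.1% and 8.71 to 12.6% of all TPM.

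The second comparison asked what AT-0174 changed in suspension. Of the 37 tested genes 1 rose, *GDF15*, and none fell, where 0.522% of all tested genes rose and 0.258% fell. At an unadjusted p under 0.05 there were 6 higher and 0 lower, and DESeq2 and limma-voom called 2 and 1 higher and 0 lower. The groups did not overlap for 8 genes that were higher with AT-0174 (*TRIB3*, *CEBPB*, *MTHFD1L*, *ASNS*, *GPT2*, *CHAC2*, *GDF15* and *ADM2*) and for 3 that were lower (*PHGDH*, *MTHFD2* and *ALDH18A1*), against 7.75% and 7.66% of all tested genes. The median log2 fold change was 0.04 over the set and 0.00 over all tested genes.

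*GDF15* had 26.5, 24.2 and 25.4 CPM with vehicle and 40.2, 40.6 and 38.1 CPM with AT-0174. The 3 treated libraries were all above the 3 vehicle ones, and *GDF15* rose by 0.64 on the log2 scale (SE 0.0494, 1.56-fold, adjusted p = 1.81e-05). Only 10 of the 15528 genes had a smaller p. *STC2* and *ADM2*, the other secreted factors tested, had differences of 0.13 and 0.11 that did not pass.

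*TRIB3* and *CEBPB* had the lowest adjusted p after *GDF15*, and neither was called. *TRIB3* had 307, 311 and 319 CPM with vehicle and 357, 327 and 346 CPM with AT-0174, a difference of 0.14 (SE 0.0351, 95% interval 0.06 to 0.21, adjusted p = 0.134). *CEBPB* had 19.6, 26.3 and 28.6 CPM with vehicle and 31.1, 30.4 and 28.9 CPM with AT-0174, a difference of 0.28 (SE 0.0989, adjusted p = 0.37). *TRIB3* was called when DESeq2 was used, and both were called when no filter on low counts was applied.

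*ATF4* had 516, 523 and 529 CPM with AT-0174, which overlapped the vehicle libraries, and a difference of 0.01 (95% interval -0.07 to 0.09). *DDIT3* had 5.38, 5.71 and 4.94 CPM with AT-0174 (difference -0.06, 95% interval -0.26 to 0.15), and *CHAC1* had 5.28, 6.21 and 6.10 CPM (difference -0.03, 95% interval -0.24 to 0.18). *ASNS* had 21.6, 21.4 and 21.4 CPM with AT-0174 and was above all vehicle libraries, with a difference of 0.12 (SE 0.051, adjusted p = 0.524).

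The serine and folate genes were not called by edgeR, DESeq2 or limma-voom, and 1, *MTHFD1L*, had an unadjusted p under 0.05. *PHGDH* had 105, 110 and 105 CPM with AT-0174, a difference of -0.07 (SE 0.0321, adjusted p = 0.574), and *PSPH* had 26.4, 25.7 and 28.3 CPM, a difference of -0.08 (SE 0.0545, adjusted p = 0.748). *MTHFD2* had 203, 199 and 198 CPM, below all vehicle libraries by a narrow margin (difference -0.05, 95% interval -0.13 to 0.03). *SHMT2* had 212, 209 and 204 CPM and overlapped the vehicle libraries (difference 0.02, 95% interval -0.04 to 0.08).

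The genes that suspension had changed did not pass the test again with AT-0174, *GDF15* excepted. *TRIB1* had 16.4, 14.6 and 13.9 CPM (difference -0.03), *EIF2S1* had 210, 213 and 210 CPM (0.04) and *PPP1R15B* had 179, 180 and 182 CPM (-0.02). *ALDH18A1* had 143, 140 and 139 CPM (-0.07), *PYCR1* had 231, 223 and 212 CPM (0.01) and *PCK2* had 85.2, 91.5 and 79.2 CPM (0.05). *CBS* had 225, 276 and 256 CPM, a wider spread than its vehicle libraries, with a difference of 0.11 (95% interval -0.04 to 0.25). The first 2 comparisons share the suspended vehicle libraries, so their values are set side by side and were not correlated.

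**Figure D4:**
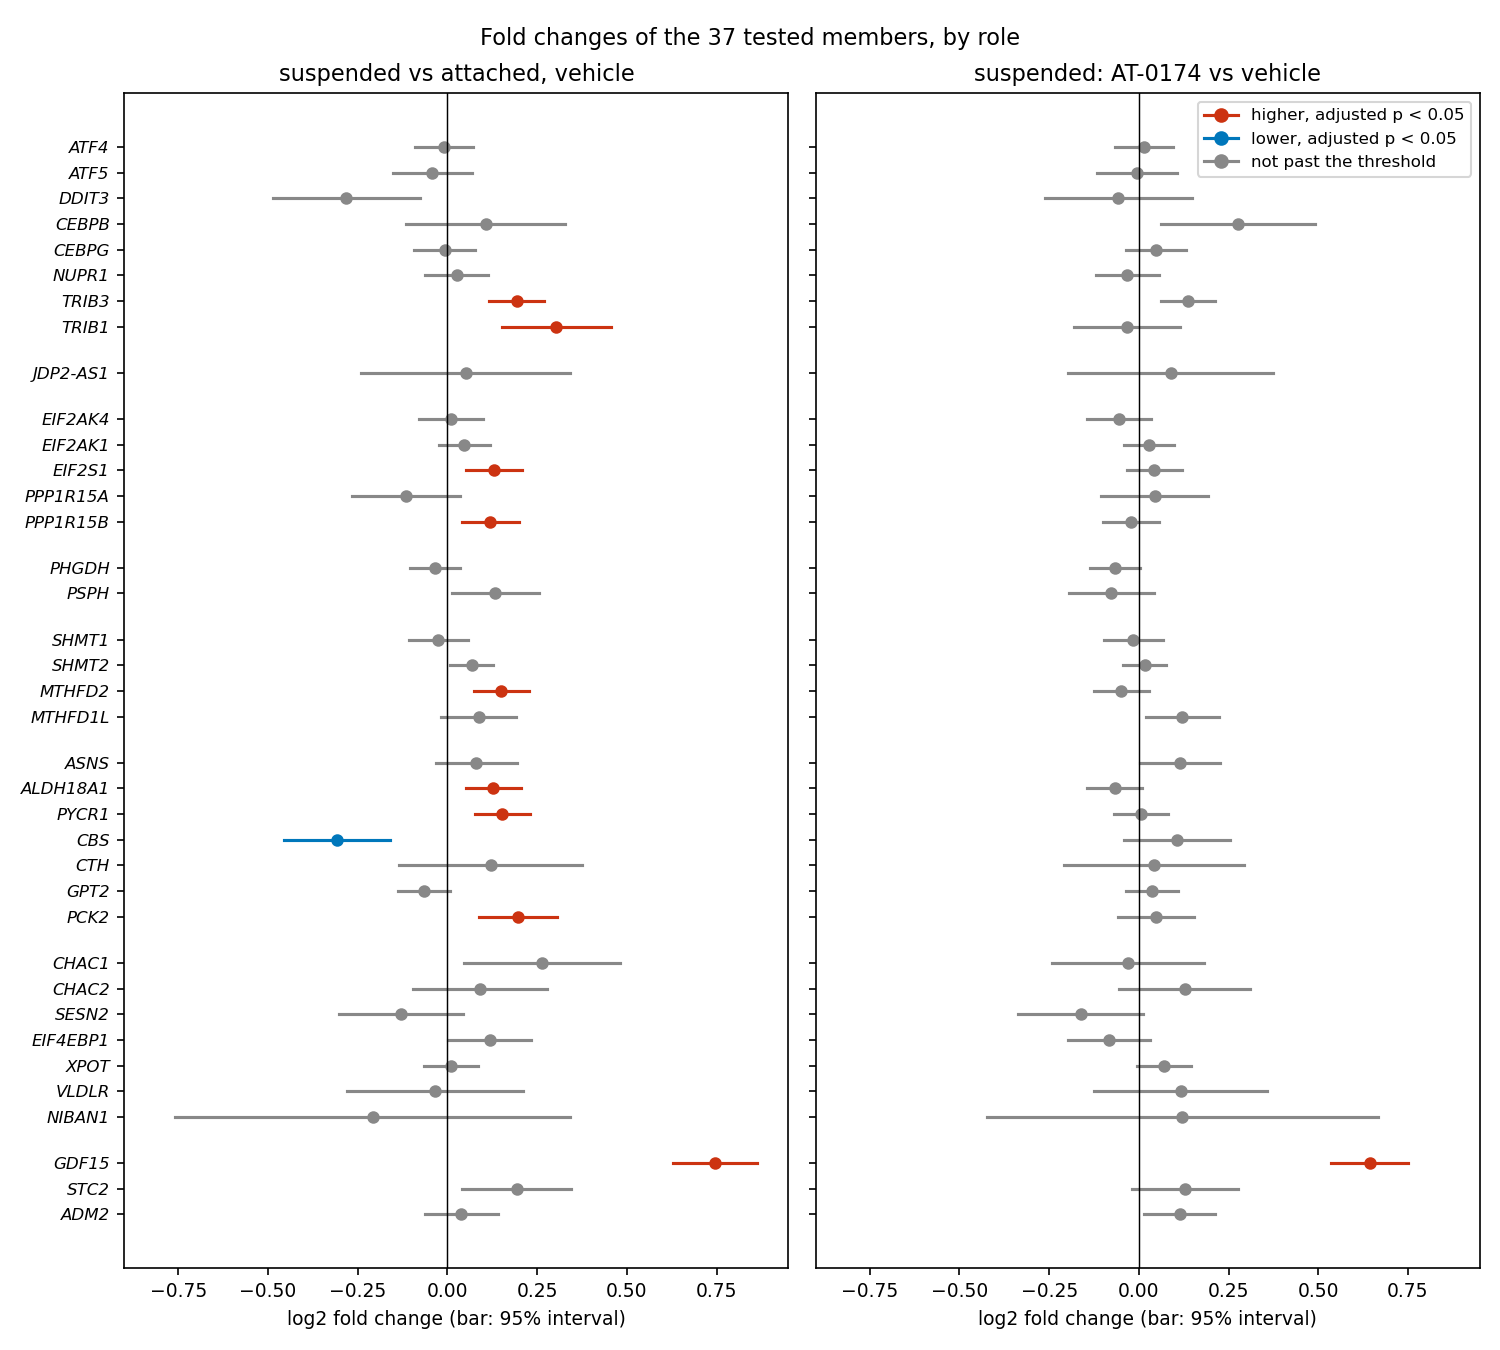
Log2 fold changes of the 37 tested genes with 95% intervals, grouped by role, for suspended against attached vehicle (left) and for AT-0174 against vehicle in suspension (right). Red marks genes that rose, blue marks the gene that fell and grey marks genes that did not pass an adjusted p of 0.05, and *GDF15* is the gene with both bars clear of 0 in red, at 0.75 and 0.64.

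The place of the set among all genes is shown by the distribution of fold changes. In suspended against attached cells 184 of the 15528 tested genes had a log2 fold change at least as large as that of *GDF15*, and with AT-0174 there were 221. The other genes of the set lay between -0.31 and 0.30 in the first and between -0.16 and 0.28 in the second.

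**Figure D5:**
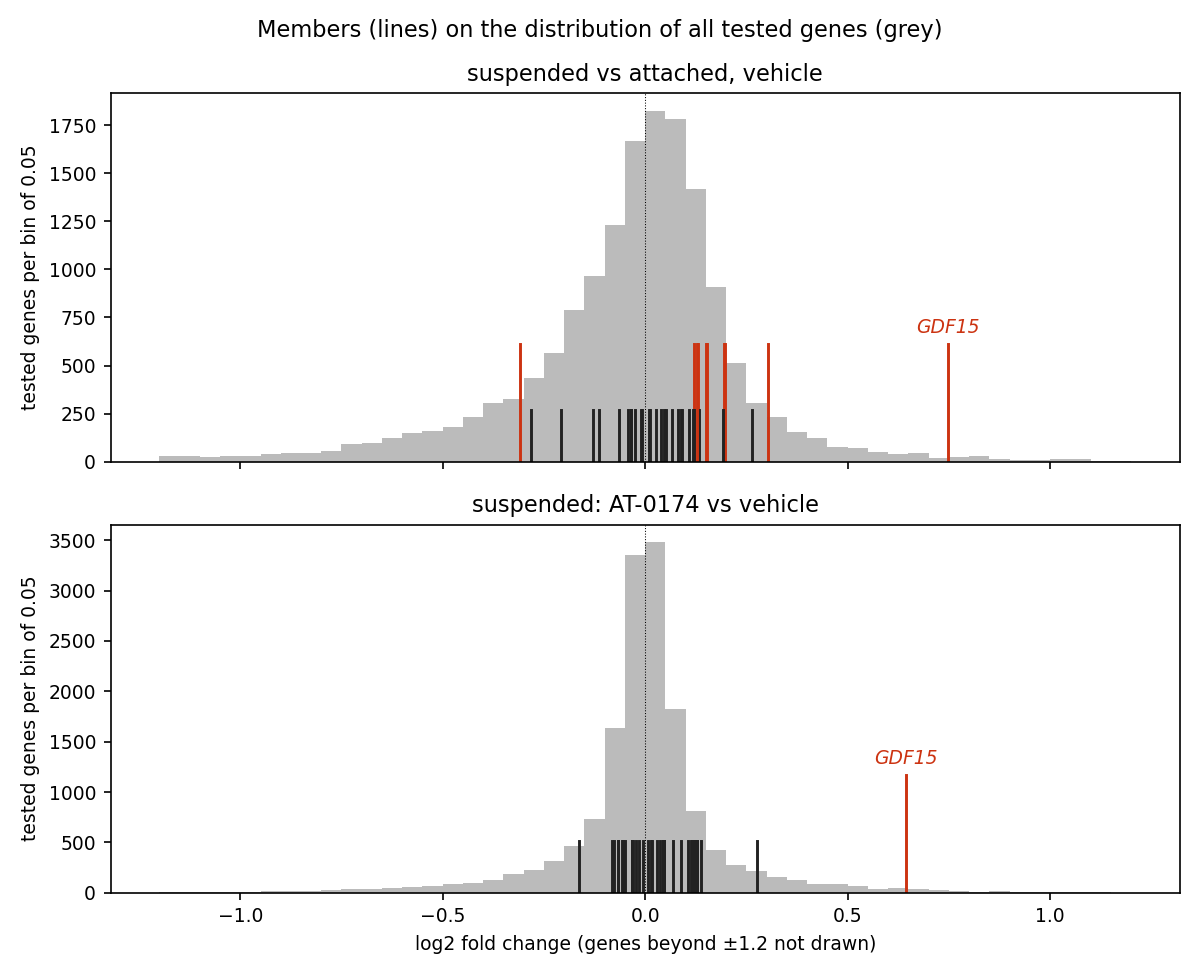
Histogram of log2 fold changes of all tested genes (grey, bins of 0.05) with the 37 genes of the set as vertical lines, red for those past an adjusted p of 0.05 and black for the others. Genes beyond 1.2 in either direction are not drawn (162 in the upper panel and 105 in the lower), and *GDF15* stands to the right of all other lines in both panels.

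The third comparison set suspended cells with AT-0174 against attached cells with vehicle, which changes culture and compound together and shares libraries with both comparisons above. Of the 37 genes, 12 rose and 4 fell, where 12.2% of all tested genes rose and 11.8% fell. *GDF15* rose by 1.39 on the log2 scale (SE 0.0525, 2.62-fold, adjusted p = 1.33e-08) and had the third smallest p of all tested genes. All 3 tested secreted factors rose, with *STC2* at 0.32 (adjusted p = 0.00589) and *ADM2* at 0.15 (adjusted p = 0.0307).

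Among the regulators *TRIB3* (0.33), *CEBPB* (0.38) and *TRIB1* (0.27) rose and *DDIT3* fell by 0.34 (SE 0.094, adjusted p = 0.0206). *ATF4* differed by 0.00 (95% interval -0.08 to 0.09). The enzymes that rose were *PYCR1* (0.16), *PCK2* (0.24), *ASNS* (0.20), *MTHFD1L* (0.21) and *SHMT2* (0.08), and *EIF2S1* rose by 0.17. *PHGDH* fell by 0.10 (SE 0.0322, adjusted p = 0.0359), *CBS* fell by 0.20 (SE 0.0679, adjusted p = 0.047) and *SESN2*, a p53 and ATF4 target that restrains mTORC1, fell by 0.29 (SE 0.0799, adjusted p = 0.0197). For *CBS* the 2 groups overlapped. Several of these calls were near the threshold. Out of 19 alternatives, the call was lost in 13 for *SHMT2*, in 11 for *CBS*, in 9 for *PHGDH*, in 7 for *ADM2* and in 6 for *DDIT3*, and DESeq2 made neither the *CBS* nor the *ADM2* call. *SESN2* had 28.6 to 32.4 CPM attached and 24.3 to 26.8 CPM with AT-0174.

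Leaving out 1 library moved this count by more than 1.5 times in 2 cases. The 16 calls became 7 without AT-0174 replicate 1 and 10 without attached replicate 3. *GDF15* was called in all 19 alternatives to the processing in each of the 3 comparisons.

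Other genes of the pathway were taken from lists of 92 genes, of which 86 were tested, and they were chosen with results of these data already known. In suspended against attached cells 23 rose and 6 fell (median log2 difference 0.06), where 10.4% of all tested genes rose and 10.8% fell. With AT-0174 in suspension 2 rose and 1 fell (median 0.01), where 0.522% and 0.258% of all tested genes did. Without attached replicate 3 or suspended vehicle replicate 2 the 29 calls in suspension became 19. The transporters and tRNA ligases under ATF4 control accounted for 10 of the 23 rises, out of 22 tested, and none of these 22 fell in suspension by edgeR, DESeq2 or limma-voom, or at an unadjusted p under 0.05. The amino acid exchanger *SLC7A11*, which imports cystine, had 24.3, 23.8 and 23.2 CPM attached, 35.04, 34.9 and 35.3 CPM suspended, and 56.9, 54.7 and 53.9 CPM with AT-0174. The 3 conditions did not overlap, and it rose by 0.56 in suspension (SE 0.0406, adjusted p = 3.51e-06) and by 0.65 with AT-0174 (SE 0.038, adjusted p = 2.5e-06). *SLC7A5* (0.35, adjusted p = 0.000733) and *SLC7A1* (0.23, adjusted p = 0.000861), importers of large neutral and of cationic amino acids, rose in suspension and had differences of 0.03 and 0.01 with AT-0174. For AT-0174 against suspended vehicle, edgeR and limma-voom called 1 of these 22 genes higher and 0 lower. DESeq2 called 1 higher and 1 lower, and 2 were lower at an unadjusted p under 0.05. These 2 were *SLC6A9* and *SLC38A2*, both with a difference of -0.16 (edgeR adjusted p = 0.165 and 0.406).

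Among 17 sensors and parts of the eIF2 machinery, 3 rose and 1 fell in suspension, beside 10.4% and 10.8% of all tested genes. With AT-0174 none was called by edgeR, DESeq2 or limma-voom, and 2 had an unadjusted p under 0.05. Those that rose were *PPP1CC* (0.14), *GCN1* (0.13) and *PPP1CA* (0.11), which are 2 phosphatase catalytic subunits and a GCN2 activator, and *DELE1*, a relay of mitochondrial stress, fell by 0.25 (SE 0.0543, adjusted p = 0.00726). Among 20 other ATF4 targets, *ATG5* rose (0.15, a call that DESeq2 and limma-voom did not make) and *YPEL3*, *JDP2* and *MCL1* fell in suspension, by 0.35, 0.28 and 0.15. With AT-0174, the autophagy receptor *SQSTM1* had 371 to 383 CPM with vehicle and 446 to 475 CPM with the compound and rose (log2 difference 0.28, SE 0.0319, adjusted p = 0.000727). *TXNIP*, an inhibitor of thioredoxin and glucose uptake, fell by 0.23 (SE 0.0416, adjusted p = 0.0235).

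Among 27 other serine, glycine, folate and proline enzymes, 9 rose and 2 fell in suspension, beside the same shares of all tested genes (10.4% and 10.8%). With AT-0174 none was called by edgeR, DESeq2 or limma-voom, and 2 had an unadjusted p under 0.05. *PYCR3*, a cytosolic relative of *PYCR1*, rose by 0.33 (adjusted p = 0.00155), and *PGAM5*, a mitochondrial phosphatase listed with the phosphoglycerate mutases, rose by 0.23 (adjusted p = 0.0013). *PRODH*, which breaks proline down, fell by 0.59 (SE 0.114, adjusted p = 0.00405), from 317, 322 and 403 CPM attached to 215, 227 and 249 CPM suspended. Of the listed serine transporters, *SFXN3* fell by 0.34 (adjusted p = 0.00189) while *SFXN1* rose by 0.13 (adjusted p = 0.0285). Of the enzymes that make proline, *ALDH18A1*, *PYCR1* and *PYCR3* thus rose in suspension, and of those that break it down *PRODH* fell while *ALDH4A1* rose by 0.14 (adjusted p = 0.0222).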

How the data were processed

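RNA was extracted with the RNeasy mini kit and sequenced in bulk. The labels and the study's methods name different library kits (a SMARTER kit and the Universal Plus mRNA kit), so strandedness was not settled and antisense genes are uncertain. Per the submitters' processing notes, the tools were bcl2fastq 2.20.0.422, Trim Galore 0.6.7 with cutadapt 3.4, STAR 2.7.9a, Salmon 1.10.1 and R 4.2.2, with build GRCh38. The authors deposited a table of estimated counts per gene, which sums their Salmon estimates over transcripts, and the same Salmon files hold the TPM that the authors deposited per transcript.

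Estimated counts were rounded to whole numbers, filtered with filterByExpr and scaled with TMM in edgeR 4.0.16 (R 4.3.3). The quasi-likelihood test was fitted with condition as the only term to all 9 libraries, with p-values adjusted over 15528 genes and a threshold of 0.05. The study used limma, so limma-voom (limma 3.58.1) was tried as an alternative, as were DESeq2 1.42.0 with its size factors, other filters, the 6 libraries of a contrast alone, counts rebuilt from TPM, a threshold of 0.01, a replicate block and leaving out each library. Intervals are at 95%. The fit was also run on counts simulated from its own estimates, which checks the code and cannot show whether the model suits these data.

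TPM was summed by gene and has no test. The deposited files use Ensembl transcripts, of which 99.0% were found in GENCODE 44, the source of gene positions and transcript classes. Promoter sequences came from RefSeq, GRCh38.p14. Replicates of a condition differed by more than sampling noise. The members, the gene lists and the tests were chosen with earlier results of these data known. Values in every library are given for the members called in the first 2 comparisons and for ATF4, DDIT3, TRIB3, CHAC1, ASNS, PHGDH, PSAT1, PSPH, SHMT2 and MTHFD2 whatever their values, and the rest by range. From each list of other pathway genes, up to 3 called genes with the smallest p in each of the first 2 comparisons are named. CEBPB, STC2 and other genes beyond these rules, among them PPP1CA, ATG5, PRODH, ALDH4A1 and COL1A1, were named after their values were seen, and the transcript classes were chosen then too.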

Additional observations from a re-analysis of the deposited data

How the results depend on the processing

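Counts of called genes of the set were within 1.5 times the reported ones except as follows. Counts rebuilt from TPM gave 5 of 37 calls for suspended against attached vehicle (10 as reported) and 7 for AT-0174 against attached (16 as reported), and a threshold of 0.01 gave 4 and 7. For AT-0174 against suspended vehicle (1 as reported), DESeq2 gave 2 and no filter on low counts gave 3. Leaving out a library gave 7 to 11, 1 to 1 and 7 to 15 calls in the 3 comparisons in that order. For the other pathway genes (29, 3 and 41 as reported), counts rebuilt from TPM gave 17, 0 and 24, a threshold of 0.01 gave 16 and 19 in the suspension comparison and in AT-0174 against attached, no filter gave 5 for AT-0174 in suspension, and leaving out a library gave 19 to 30, 2 to 3 and 23 to 41. The lowest counts came without attached replicate 3 (19 and 25), suspended vehicle replicate 2 (19) and AT-0174 replicate 1 (23). Summing *CBS* with *CBSL*, chosen after seeing the data, left the same calls. The causes were not tested.

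Deviations from the condition mean correlated at -0.0652 to 0.0526 between same-numbered libraries and at -0.0862 to 0.0886 between differently numbered ones. These correlations cannot show whether replicates of the same number were handled together. With a replicate block the calls of the set were 11, 1 and 14. *EIF4EBP1* gained a call in suspension, *SHMT2* and *PHGDH* lost theirs with AT-0174 against attached cells, and the block changed no other call of the set.

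Differences were recomputed for the genes named by rule and the members called, and the sign turned for *ATF4*, *CHAC1*, *TRIB1*, *PYCR1* and *PCK2*. *ATF4* took 0.00608 in suspension with counts rebuilt from TPM, and leaving out a library gave -0.0277 to 0.0339 in suspension, -0.0304 to 0.0310 with AT-0174 against suspended vehicle and -0.00677 to 0.0283 against attached vehicle. With AT-0174 in suspension, leaving out a library gave -0.0730 to 0.0411 for *CHAC1*, -0.108 to 0.0121 for *TRIB1*, -0.0233 to 0.0329 for *PYCR1* and -0.00510 to 0.0926 for *PCK2*, and counts rebuilt from TPM gave -0.00174 for *PYCR1*. *GDF15* ranged from 0.71 to 0.78, 0.61 to 0.67 and 1.36 to 1.43 over the alternatives to the 3 comparisons and kept its call. *DDIT3* passed the threshold in suspension in 5 of 19 alternatives, and *CEBPB* did so without suspended vehicle replicate 1. Genes near 3 counts could not be compared at this depth.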
